A study of Rattus with 4 samples.

Results

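The genes described here encode the 3 DBHS proteins and 6 proteins found with them in paraspeckles or bound to them in the nucleus. They are Nono, Sfpq, Pspc1, Matr3, Rbm14, Hnrnph3, Hnrnpk, Dazap1 and Tardbp. They were chosen by name, and all 9 are among the 13731 genes listed in the deposited tables. The data are RNA immunoprecipitation sequencing (RIP-seq) of cultured rat cardiac cells, a method that sequences RNA recovered with an antibody to a protein and compares it with RNA of the starting lysate. One group is input RNA with no antibody, from cells labelled as carrying an empty vector (2 libraries). The other is RNA recovered with an anti-NONO antibody (NONO IP), from cells labelled as carrying siRNA against NONO (2 libraries). No library with a control antibody is among the 4, so antibody recovery and knockdown cannot be told apart by these labels. The labels call the cells a rat cardiac fibroblast line in the growth protocol, while H9C2, the name in the titles, is a myoblast line of rat heart. Nothing says that replicates are separate cultures. A p-value here therefore sets the difference between the groups against a spread between replicate libraries that may be technical only.

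DBHS proteins (Drosophila behaviour and human splicing) carry a pair of RNA recognition motifs and a coiled coil, and they work as dimers with each other. NONO, SFPQ and PSPC1 take part in transcription, splicing, retention of edited RNA in the nucleus and DNA repair. Together they coat the long noncoding RNA Neat1, which scaffolds the nuclear bodies called paraspeckles. RBM14, HNRNPK, DAZAP1 and HNRNPH3 are RNA-binding proteins on which these bodies depend in cultured cells, TARDBP (TDP-43) is a splicing regulator found in them, and MATR3 (matrin 3) is a nuclear matrix protein that binds the SFPQ and NONO pair. What was measured is the messenger RNA of these proteins, not the proteins themselves. No symbol matched Neat1 or Malat1, which are not analysed here.

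The libraries were shallow, with 238776 to 279410 gene counts each. The input libraries held 123 and 85 reads on the 9 genes and the NONO IP libraries 216 and 181, or 0.0356% to 0.0773% of a library. A count of 3 reads, taken as the limit of detection, corresponds to 15.5 and 15.9 CPM in the inputs and 10.2 and 10.7 CPM in the NONO IP. CPM are counts put on one library size, with TMM scaling. Pspc1, Matr3 and Tardbp lay near this limit in both groups, Rbm14 and Hnrnph3 in the inputs and Nono in the NONO IP. Fibroblast markers were the most abundant of the marker lists in the inputs, led by Col1a1 (19445 and 18630 reads over 9 listed markers). Of 6 skeletal myoblast markers Myh3 alone was listed, with 3 reads in each input and 0 and 1 in the NONO IP libraries. Summed fibroblast markers were at 98586 to 100170 CPM in the inputs and 68978 to 69086 CPM in the NONO IP, those of smooth muscle and pericytes at 4207 to 4255 and 1713 to 1758, and those of macrophages and leukocytes at 68.8 to 72.1 and 0 to 10.2. Cardiomyocyte markers, at 222 to 339 CPM in the inputs and 271 CPM in either NONO IP library, and endothelial markers, at 5.15 to 5.29 and 0 to 10.2, overlapped between the groups. The part of these shifts in the values below was not tested. In these samples, recovery by the antibody, fewer cells of a type and less RNA per cell cannot be told apart.

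Rbm14 and Hnrnph3 were higher in the NONO IP, Dazap1 was higher by a smaller amount, and Nono was lower. Sfpq and Hnrnpk, the remaining genes with enough reads for the main test, did not pass it, and Pspc1, Matr3 and Tardbp had too few reads to be placed. The main test (edgeR's quasi-likelihood test with TMM scaling, adjusted p under 0.05) was run on 2920 genes that passed a filter on low counts, 5 of these 9 among them. Of the 5, 3 were called higher and none lower, where 29.8% of all tested genes were called higher and 26.9% lower. None of the 5 was lower at an unadjusted p under 0.05 either, nor called lower by the DESeq2 Wald test. Each of the 3 had fewer reads in an input library than the filter asks for, so it entered the test through its NONO IP reads, and the count of 3 says nothing beyond the single genes. In a fit over all 13731 listed genes with no filter, 3 of the 9 were called higher and 1 lower. The shares called there were 8.59% and 4.73% of all listed genes, and 18.2% and 9.88% of the 6134 with at least 11 reads, the number that the lowest of the 9 had. Median log2 fold changes over all genes were 0.02 in the filtered fit and 0.30 in the unfiltered one, so the unfiltered values below lie somewhat higher throughout.

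**Figure D1:**
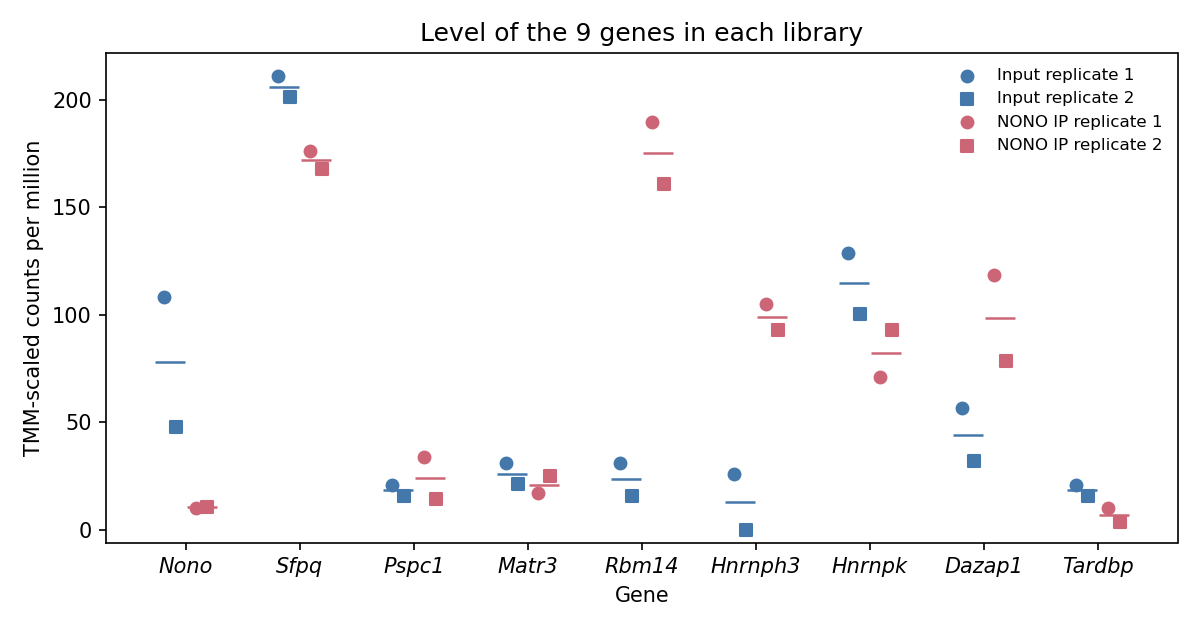
TMM-scaled CPM (vertical axis) of each of the 9 genes (horizontal axis) in 2 Input and 2 NONO IP libraries; circles are replicate 1, squares replicate 2 and short lines group means (n = 2). Rbm14 lies at 15.9 and 30.9 in input RNA against 161 and 190 in precipitated RNA, and Nono at 47.6 and 108 against 10.2 and 10.7.

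Among the DBHS genes, the transcript of the precipitated protein itself was the one that differed. Nono (non-POU domain containing, octamer-binding; chromosome X) was counted 21 times in Input replicate 1 and 9 times in Input replicate 2, against 3 reads in either NONO IP library. Its scaled level was 77.9 ± 42.8 CPM in the inputs and 10.4 ± 0.395 CPM in the NONO IP (mean ± SD, n = 2). The input libraries lay above both NONO IP libraries, although they differed from each other by 2.27-fold (exact 95% interval for counting error 0.997 to 5.63). The summed reads were 7.51 times higher in the inputs per scaled library, with an exact conditional 95% interval of 3.07 to 22.1 that covers counting error only. Since reads carry no molecular identifiers, such intervals do not cover amplification.

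Nono fell just outside the filter of the main test, which asked for 9.30 reads in Input replicate 2 where 9 were counted. The unfiltered fit gave −2.64 on the log2 scale (SE 0.58; edgeR adjusted p = 0.000772). In that fit the call was lost without Input replicate 1 (−2.01, adjusted p = 0.0705) and with either NONO IP library left out (adjusted p = 0.459 for replicate 1 and 0.426 for replicate 2), where the fits called 5 and 4 genes in all. A group with a library left out has 1 library, which these fits assume to vary like the other group. Nono also entered the filtered test in 3 of 4 such fits, but only through its input reads, where it is high, so those fits add nothing on it. The call also ended with DESeq2 size factors (adjusted p = 0.132), the DESeq2 Wald test (0.0641), limma-voom (0.0987) and a gene length offset (0.0834), all with log2 fold changes between −2.73 and −2.39.

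Sfpq (splicing factor proline and glutamine rich; chromosome 5), the largest DBHS protein and the usual partner of NONO, held most of the reads of the family. The input libraries held 41 and 38 of its reads and the NONO IP libraries 52 and 47. Both NONO IP libraries lay below both inputs in scaled level (176 and 168 CPM against 211 and 201), and groups failed to overlap in either direction for 77.9% of the tested genes. The log2 difference was −0.26 (SE 0.22; edgeR adjusted p = 0.328). It turned to 0.20 with library totals, where the median gene lay at 0.48, and with an offset for gene length it was −0.65 and passed (adjusted p = 0.0216). Measured against the median gene, Sfpq was at −0.28 on both the TMM and the library total scale.

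Pspc1 (paraspeckle component 1; chromosome 15), the DBHS protein after which the bodies were first described, was sparse. The input libraries held 4 and 3 reads and the NONO IP libraries 10 and 4, and the groups overlapped at 15.9 and 20.6 against 14.3 and 33.9 CPM. The scaled ratio of NONO IP to input was 1.33, and its counting interval of 0.503 to 3.90 includes equal levels. The unfiltered log2 fold change of 0.61 (SE 0.66, edgeR adjusted p = 0.696) turned to −0.21 without NONO IP replicate 1. It was −0.26 on the deposited RPKM scale, where the median gene lay at −0.61. No difference was detectable at this depth. In RefSeq Pspc1 overlaps Mphosph8, which had no input reads and 1 and 4 in the NONO IP libraries. As for Matr3 below, reads of overlapping genes cannot be told apart.

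Shares of the reads on the DBHS genes can be compared within each library, where library scaling plays no part. Nono made up 31.8% and 18.0% of the reads on the 3 genes in the 2 input libraries, against 4.62% and 5.56% for the NONO IP. Sfpq made up 62.1% and 76.0% of them in input RNA and 80.0% and 87.0% in precipitated RNA. Pspc1 had 6.06% and 6%, then 15.4% and 7.41%. These shares rest on 50 to 66 reads a library. They are shares of reads and not of transcripts, since Sfpq has 3.39 times the counted length of Nono and Pspc1 1.15 times. Per length, Nono (16.5 ± 8.96 RPKM) and Sfpq (12.9 ± 0.368 RPKM) overlapped in the inputs.

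**Figure D2:**
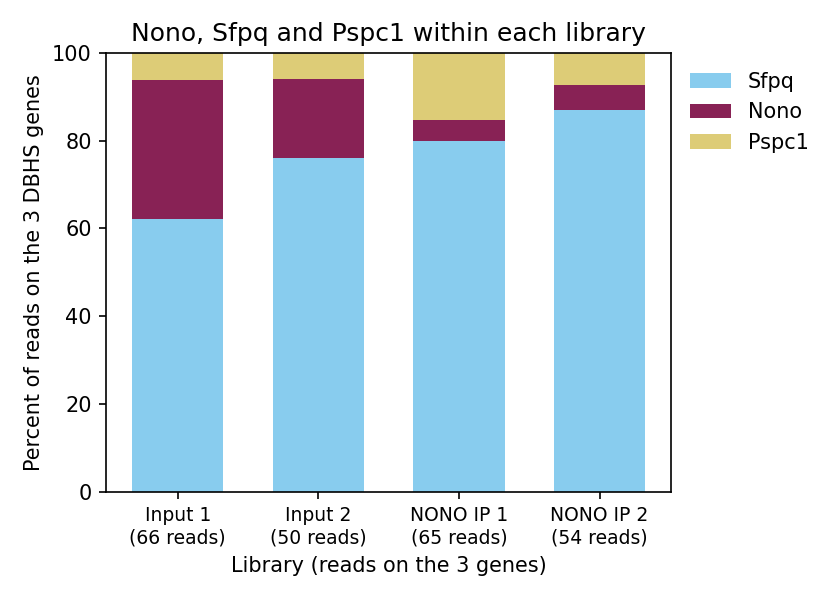
Percent of the reads on Nono, Sfpq and Pspc1 (vertical axis) that fell on each of them in each library (horizontal axis, with the reads counted). Nono takes 18.0% and 31.8% of the input bars, 4.62% and 5.56% of the NONO IP bars, and Sfpq is the largest part of each bar. Reads are not divided by gene length.

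For each read of Sfpq there were 0.512 and 0.237 reads of Nono in the input libraries, and 0.0577 and 0.0638 in those of the NONO IP. The odds ratio of input to NONO IP was 6.22 (exact conditional 95% interval 2.39 to 19.2). Against Pspc1 it was 9.50 (2.43 to 43.0), with 5.25 and 3 Nono reads for each Pspc1 read in input RNA and 0.300 and 0.750 in precipitated RNA. The difference between Nono and each of its paralogs was thus larger than counting error, in these libraries and without any scaling. Pspc1 and Sfpq did not separate in this way: the odds ratio of NONO IP to input was 1.59 (0.568 to 4.90). With Sfpq as the yardstick for the other 6 genes, a comparison chosen after the values were seen, the odds ratio of NONO IP to input was 8.89 for Rbm14 (4.16 to 21.3), 9.03 for Hnrnph3 (3.42 to 30.2) and 2.67 for Dazap1 (1.40 to 5.29). For Hnrnpk it was 0.853 (0.498 to 1.46), for Matr3 0.958 (0.358 to 2.62) and for Tardbp 0.458 (0.0948 to 1.88). These 3 intervals include equal change. None of the odds ratios is corrected for gene length. With the length offset Sfpq went from −0.26 to −0.65 and Rbm14 from 2.87 to 2.17 on the log2 scale in the filtered fits. Nono stayed at −2.64 in the unfiltered ones.

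For Matr3, on chromosome 18, input libraries held 6 and 4 reads and NONO IP libraries 5 and 7. Its scaled levels overlapped, at 21.2 and 30.9 CPM against 16.9 and 25.0 CPM. The ratio of NONO IP to input was 0.799 (counting interval 0.316 to 2.06). The unfiltered log2 fold change of −0.10 (SE 0.62, edgeR adjusted p = 0.930) turned to 0.11 with library totals, where the median gene lay at 0.50. In RefSeq (assembly GRCr8) the gene overlaps Snhg4, Snora74a and Mir1949. Mir1949 had no input reads and 6 in each NONO IP library. Reads of overlapping genes cannot be told apart here, since no source used says whether counting respected strand.

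Rbm14 (RNA binding motif protein 14; chromosome 1), a transcriptional coactivator with a prion-like domain, rose. The input libraries held 6 and 3 reads and the NONO IP libraries 56 and 45. Its level rose from 23.4 ± 10.6 to 175 ± 20.4 CPM, and the lower NONO IP library, at 161 CPM, stood above the higher input at 30.9 CPM. On the log2 scale the difference was 2.87 (SE 0.39; edgeR adjusted p = 8.32e-06). With a library left out the log2 difference was 2.43 to 3.40. There the remaining group gives the spread between replicates, and the gene passes the filter only through its NONO IP reads, where it is high. Those fits therefore add nothing on the call. On the RPKM scale the call held with a pseudocount of 1 (1.48, limma adjusted p = 0.0424) and was lost with one of 0.1 (2.18, limma adjusted p = 0.0620). Rbm14 has the longest counted length of the 9, 5.53 times that of Nono, and the length offset gave it 2.17 (edgeR adjusted p = 0.00064). RefSeq places Rbm4 and Rbm4b within the same stretch; Rbm4b had 1 read in Input replicate 2 and 1 in NONO IP replicate 1, and Rbm4 was not found by symbol.

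Hnrnph3 (heterogeneous nuclear ribonucleoprotein H3; chromosome 20), of the G-tract binding H/F family of splicing regulators, rose by a similar amount on the log2 scale. Input replicate 1 held 5 of its reads and Input replicate 2 none, against 31 and 26 in the NONO IP. The 3 reads that a count of 0 allows correspond to 15.9 CPM in Input replicate 2. The NONO IP libraries stood at 105 and 92.9 CPM, above 25.8 CPM in Input replicate 1, and the summed ratio was 7.59 (exact counting interval 3.07 to 24.3). The fitted log2 difference was 2.88 (SE 0.59; edgeR adjusted p = 0.000518). Without Input replicate 2 the difference was 1.86. Without Input replicate 1 the gene has no input read and its fitted value is not a bound. Fits with a library left out add nothing on the call, since the gene enters them only through its NONO IP reads, where it is high. The call was lost with the DESeq2 Wald test (2.93, adjusted p = 0.108) and on the RPKM scale (2.15, limma adjusted p = 0.118). Rufy2, which overlaps it in RefSeq, had 1 read in each input and 3 in each NONO IP library.

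Hnrnpk (chromosome 17), a KH-domain protein that binds C-rich RNA and favours the long Neat1 isoform, was counted 25 and 19 times in the input libraries, 21 and 26 times in those of the NONO IP. Scaled levels were 115 ± 20 and 82.0 ± 15.4 CPM (n = 2), with the NONO IP libraries at 71.1 and 92.9 just under the lower input at 101. The log2 fold change of −0.49 (SE 0.31, edgeR adjusted p = 0.187) did not pass, and it lay between −1.14 and −0.03 under the other scalings, tests and filters. Rmi1 and Mir7-1 overlap the gene in RefSeq, and held at most 6 reads and 1 read in a library.

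Dazap1 (DAZ associated protein 1; chromosome 7), an RNA-binding protein of splicing and translation, was counted 11 and 6 times in the input libraries, 35 and 22 times in those of the NONO IP. Its level rose from 44.2 ± 17.6 to 98.5 ± 28.2 CPM, the lower NONO IP library at 78.6 lying above the higher input at 56.7. The log2 difference was 1.15 (SE 0.40; edgeR adjusted p = 0.0214). This call rested on single libraries: it ended without Input replicate 2 (0.74, adjusted p = 0.179) and likewise without replicate 1 of the NONO IP (0.88, adjusted p = 0.158). It also ended with the DESeq2 Wald test (1.16, adjusted p = 0.176) and on the RPKM scale (0.48, limma adjusted p = 0.369), where the median gene lay at −0.61.

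Tardbp (TAR DNA binding protein; chromosome 5) had the fewest reads, with 4 and 3 from the inputs against 3 and 1. Inputs stood at 20.6 and 15.9 CPM and the NONO IP libraries at 10.2 and 3.57 CPM, all within a few reads of the limit. The ratio of input to NONO IP was 2.63 with a counting interval of 0.668 to 12.2, and the unfiltered fit gave −1.12 on the log2 scale (SE 0.84, edgeR adjusted p = 0.523). Its sign was the same under every alternative tried. Masp2 and Snora21 overlap Tardbp in RefSeq.

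Taken as non-overlapping scaled levels, 3 of the 9 genes had both NONO IP libraries above both inputs, 4 had both below and 2 overlapped. Over all listed genes the shares were 22.5% above and 22.7% below. Among the 2920 genes that passed the count filter, 77.9% failed to overlap in either direction. All 9 had a higher scaled level in Input replicate 1 than in Input replicate 2, with summed reads 1.41-fold higher per scaled library (exact counting interval 1.06 to 1.88), beside 1.02-fold (0.911 to 1.15) for 45 other paraspeckle genes. The difference between the lists was not tested, and the intervals cover counting error only. In the NONO IP, replicate 1 was higher for 6 of the 9.

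Levels of different genes are comparable only per length, on the deposited RPKM scale (reads divided by gene length and by a library total). In the inputs Hnrnpk (17.3 ± 2.91 RPKM), Nono (16.5 ± 8.96), Sfpq (12.9 ± 0.368) and Dazap1 (10.2 ± 4.01; SD, n = 2) formed an upper group, in which neighbours overlapped. They lay above 87.8% to 92.6% of the listed coding genes. Pspc1 (3.36 ± 0.594) and Matr3 (2.97 ± 0.771) followed, also overlapping, then Tardbp (2 ± 0.354), Hnrnph3 (1.72 ± 2.43) and Rbm14 (0.895 ± 0.403).

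The order in the NONO IP was another one. Dazap1 came first at 14.3 ± 3.68 RPKM, followed by Hnrnph3 (8.36 ± 0.467), Hnrnpk (7.85 ± 1.71) and Sfpq (6.79 ± 0.0212). Both libraries of Dazap1 lay above those of Hnrnph3, and Hnrnph3, Hnrnpk and Sfpq overlapped in turn. Rbm14 was next at 4.24 ± 0.361, below both libraries of Sfpq and above both libraries of Pspc1 (2.78 ± 1.53), Matr3 (1.52 ± 0.460) and Nono (1.40 ± 0.0990), and Tardbp was last at 0.470 ± 0.311. Nono thus went from above 92.2% of coding genes to above 61.1%, and Rbm14 from above 38.2% to above 83.8%, on a scale of ranks within each group. Rank can be compared here where absolute RPKM cannot: the library total behind the RPKM values was 2.38 times as large in the NONO IP as in the inputs.

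**Figure D3:**
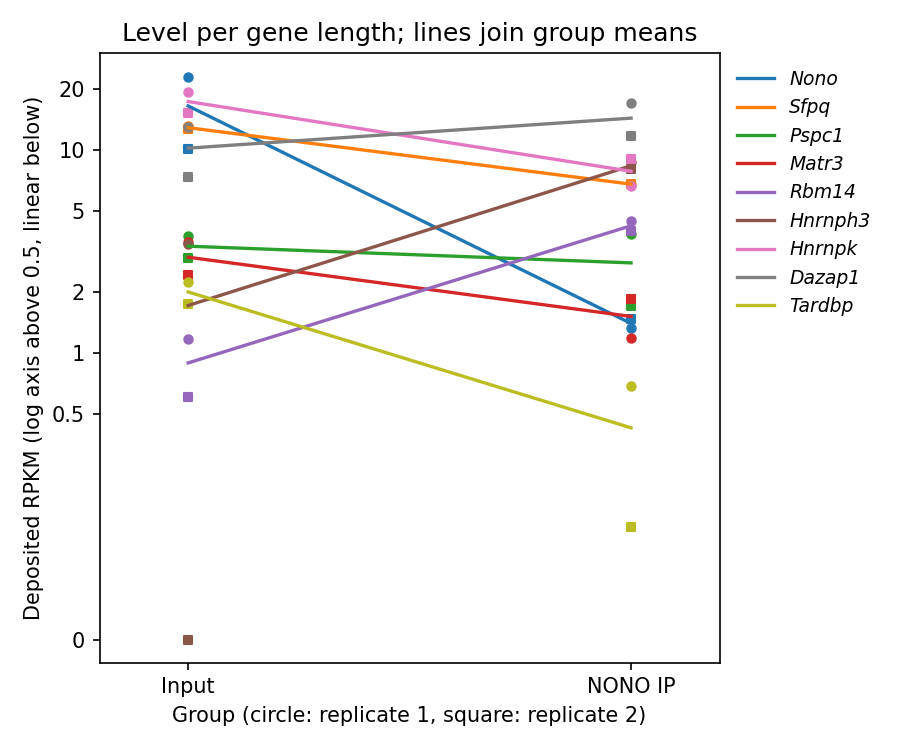
Deposited RPKM (vertical axis, logarithmic above 0.5 and linear below) of the 9 genes in the inputs and the NONO IP; points are libraries (circle replicate 1, square replicate 2) and lines join the group means. The line of Nono falls from 16.5 to 1.40 and crosses those of Rbm14 (0.895 to 4.24) and Hnrnph3 (1.72 to 8.36).

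Library totals in place of TMM moved the genes together, while RPKM and the length offset moved them by unlike amounts. On the log2(RPKM + 1) scale, which understates changes of low genes, the median gene was at −0.61, Nono was at −2.76 (limma adjusted p = 0.0270), Rbm14 at 1.48 and Hnrnph3 at 2.15. Sfpq was at −0.83 (limma adjusted p = 0.0515) and Hnrnpk at −1.05 (0.0551), neither of which passed. On this scale 2 of the 9 genes passed, Nono lower and Rbm14 higher, where 5.19% of 7576 genes were called higher and 18.8% lower. With a pseudocount of 0.1, Nono and Sfpq (−0.91, limma adjusted p = 0.0473) passed, both lower, and Rbm14 did not, where 4.59% of genes were called higher and 15.1% lower. The DESeq2 Wald test called Rbm14 alone of the 5 filtered genes, and called 15.5% of 2920 genes higher and 14.5% lower. Library totals called the same 3 of 5 as TMM, with 41.7% of genes higher and 15.2% lower. With library totals over all listed genes the median gene was at 0.50, Nono at −2.42 (edgeR adjusted p = 0.000581) and Dazap1 at 1.58.

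**Figure D4:**
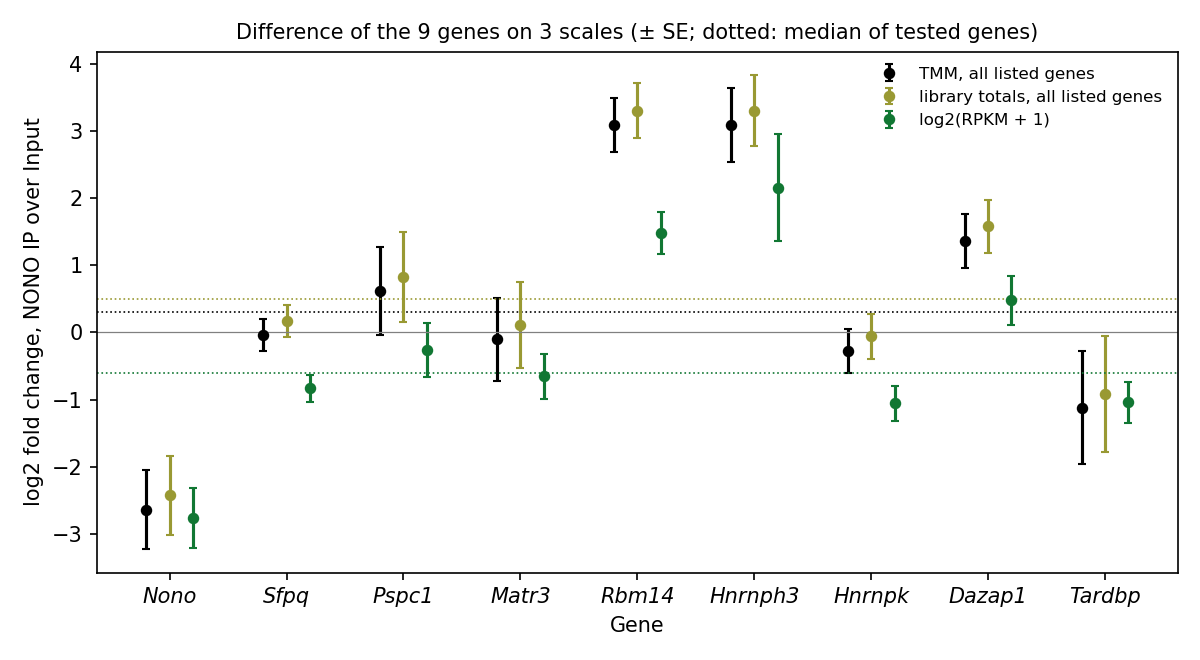
Log2 fold change of NONO IP over input (vertical axis) for the 9 genes (horizontal axis) with TMM scaling and with library totals, both over all listed genes, and on log2(RPKM + 1); bars are ± SE and dotted lines the median over the genes tested on each scale (0.30, 0.50 and −0.61). Nono lies below and Rbm14, Hnrnph3 and Dazap1 above the median of each scale.

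Other proteins of paraspeckles were looked at through a list of 48 genes, of which 45 are in the tables (Rbm4, Celf6 and Pura were not found) and 20 passed the count filter. Of these 20, 4 were called higher and 4 lower, and 12 did not pass, with a median log2 fold change of 0.01 against 0.02 over all tested genes. Of all 2920 genes 29.8% were higher and 26.9% lower. In 6 of the 20 an input library was under the number of reads the filter asks for, Celf2 and Fubp3, both called higher, among them. Ddx3x and Caprin1, both called lower, had a NONO IP library under that number and entered through their input reads. With library totals 7 were higher and 3 lower, beside 41.7% and 15.2% of all genes. On the log2(RPKM + 1) scale 1 was higher and 7 lower among 34 tested, beside 5.19% and 18.8%.

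The higher genes were RNA-binding proteins and a DNA-binding one. Hnrnpf, which like Hnrnph3 belongs to the H/F family, went from 14 and 16 to 161 and 131 reads (log2 fold change 2.69, SE 0.22, edgeR adjusted p = 1.92e-08). Celf2, a regulator of splicing, went from 4 and 1 to 34 and 17 reads (2.71, SE 0.59), and lost its call with the length offset (1.52, adjusted p = 0.0685). Ahdc1, encoding an AT-hook DNA-binding protein, went from 12 and 22 to 93 and 111 (1.99, SE 0.26), and Fubp3, a KH-domain protein, from 10 and 7 to 58 and 41 (1.94, SE 0.34). On the log2(RPKM + 1) scale Ahdc1 (1.26, limma adjusted p = 0.0756) and Fubp3 (1.14, 0.0517) did not pass.

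The lower ones were Srrm2, a scaffold of nuclear speckles, with 108 and 94 reads against 61 and 60 (−1.32, SE 0.17, edgeR adjusted p = 3.81e-06), the RNA helicase gene Ddx3x with 22 and 26 against 9 and 9 (−1.98, SE 0.37), Caprin1, of stress granules, with 15 and 30 against 7 and 11 (−1.89, SE 0.43), and Fam120a (−0.79, SE 0.21). The Fam120a call ended with library totals (−0.33, edgeR adjusted p = 0.202), with no count filter (−0.57, edgeR adjusted p = 0.102) and with the DESeq2 Wald test (−0.79, adjusted p = 0.0874).

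**Figure D5:**
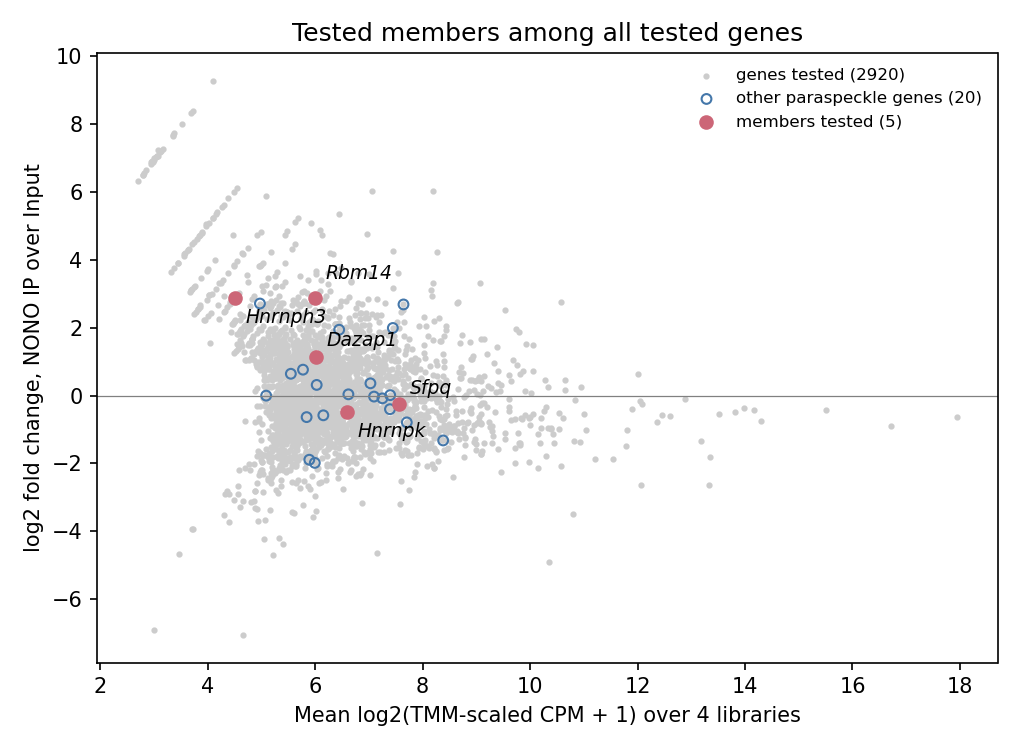
Log2 fold change of NONO IP over input (vertical axis) against mean log2(TMM-scaled CPM + 1) over 4 libraries (horizontal axis) for the 2920 genes tested; filled points are the 5 tested genes of the 9 and open circles the 20 tested genes of the other paraspeckle list. Rbm14 and Hnrnph3 lie at 2.87 and 2.88, Dazap1 at 1.15, and Sfpq and Hnrnpk at −0.26 and −0.49.

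The genes most like Nono and most like Sfpq were sought by the distance between log2(CPM + 1) values over the 4 libraries, each gene centred on its own mean, among genes with 0.5 to 2 times as many reads. Among the nearest to Nono of 3003 genes were Ap2b1 (distance 0.448), with 10 and 5 input reads against 2 and 2, and Chd8 (0.541), with 20 and 12 against 5 and 4. Nearest to Sfpq of 928 genes were Clstn1 (0.0883), Dot1l (0.0914) and Fzd2 (0.103), whose reads were 57 and 54, 49 and 46, and 23 and 23 in input RNA, and 68 and 65, 65 and 61, and 31 and 29 in precipitated RNA. With 4 libraries in 2 groups this likeness says little more than that the genes shift between the groups by a like amount.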

How the data were processed

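RIP-seq libraries of 2 inputs and 2 NONO IP samples of cultured rat cardiac cells were grouped and numbered by their titles. Per the labels' protocols, RNA was DNase-treated, captured by poly(A) and made into libraries with a stranded kit. One deposited table holds counts, whole and not normalised; the other holds RPKM, which the authors scaled by gene length and a library total. Units come from the file headers and fit the values. HISAT2, HOMER and mRatBN7.2 are named in the submitters' processing notes, with no role; how reads were counted, by strand or not, and on which annotation is not given in the sources used here. Library totals are in the report.

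Counts were tested with edgeR 4.0.16 (R 4.3.3; quasi-likelihood, TMM, filterByExpr with a minimum of 10 counts, Benjamini-Hochberg over all genes, threshold 0.05). Levels are CPM of the filtered library total times the TMM factor; SE is the log2 fold change over the root of F. Exact conditional 95% intervals were computed with scipy 1.17.1. The script was tested on simulated data. Relative gene length is counts over RPKM, with library totals from 461 genes of at least 30 counts.

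The 9 genes and all lists were chosen with earlier results of these data known. Genes named from the other paraspeckle list are, per direction, up to 6 past the threshold with the smallest adjusted p; the 3 nearest genes were taken for Nono and Sfpq, and 1 of those for Nono is not reported here. RefSeq (GRCr8) matched all 9 symbols and was used only for names and overlaps; no sequences are shown. Alternatives were DESeq2 size factors, library totals, DESeq2 1.42.0, limma-voom (limma 3.58.1), no count filter, a filter of 50 counts in 2 libraries, RPKM values tested by limma after adding 1 or 0.1 and taking log2 (RPKM of 1 or more in 2 libraries, or unfiltered), a replicate block, a loess length offset (span 0.5) without and with the block, and each library left out. For genes below the filter these were run on all listed genes, which was chosen after seeing the data.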

Additional observations from a re-analysis of the deposited data

How the results depend on the processing

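Of the 5 tested genes, 3 were called, and 2 to 3 of these 5 with a library left out; Dazap1 was lost without Input replicate 2 or NONO IP replicate 1. Counting Nono, which then entered the test in 3 of 4 fits through its input reads, the range was 3 to 4. The DESeq2 Wald test called 1. By limma on log2(RPKM + 1) with no filter on low values 0 of 9 were called (5 at an unadjusted p under 0.05), and with 50 counts in 2 libraries none of the 9 was tested. In the unfiltered fit 4 of 9 were called, against 1 with DESeq2 size factors, 2 with the DESeq2 Wald test, 1 with limma-voom, 1 with the length offset, and 0 to 3 with a library left out; the 0 came without NONO IP replicate 1 or 2 by edgeR (1 and 2 genes at an unadjusted p under 0.05). Over all genes 1657 were called, 1294 to 1504 with a library left out, 876 by the DESeq2 Wald test, 501 with 50 counts in 2 libraries (of 600 tested) and 697 on the unfiltered RPKM scale. Fitted without a count filter, 1830 of 13731 genes were called, against 384 with DESeq2 size factors and 609 with the DESeq2 Wald test. Limma-voom called 1012 there and the length offset 653. Higher calls were 52.6% of the total with TMM, 73.3% with library totals, 64.5% with no count filter and 21.6% on log2(RPKM + 1). Of the other paraspeckle genes 8 of 20 tested were called, 4 of 4 tested with 50 counts in 2 libraries and 5 of 45 on the unfiltered RPKM scale. Measured from 0, signs turned for Sfpq with library totals (0.20). Matr3 turned with library totals (0.11), without Input replicate 1 (0.11) and without NONO IP replicate 1 (0.08), in a left-out range of −0.44 to 0.11. Pspc1 turned without NONO IP replicate 1, in a left-out range of −0.21 to 1.10. It also turned on both log2(RPKM + 1) scales (−0.26) and on log2(RPKM + 0.1) (−0.36). Measured from the median gene, Sfpq was at −0.28 and Matr3 at −0.40 with TMM and with library totals. Pspc1 was then at 0.32 with TMM, 0.35 on filtered log2(RPKM + 1) and 0.46 on log2(RPKM + 0.1), but −0.04 on unfiltered log2(RPKM + 1). With a library left out, the log2 odds ratio of NONO IP to input was −3.06 to −1.95 for Nono to Sfpq, −3.73 to −2.44 for Nono to Pspc1 and −0.0577 to 1.11 for Pspc1 to Sfpq. By their labels, same-numbered libraries share only a number. Their deviations had a correlation of 0.05 across tested genes. That value cannot decide pairing, since replicates varied little beyond counting error (chi-square per degree of freedom 1.12 for Input and 1.42 for NONO IP). With the replicate block 3 of 5 and, unfiltered, 4 of 9 of the genes were called, 1676 over all genes and 8 of the other list. The cause of these differences was not tested. Depth limits Pspc1, Matr3 and Tardbp, at 11 to 22 reads over 4 libraries.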

Other observations

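Below the count filter, 2 further genes of the other paraspeckle list were called in the fit over all listed genes, and both were named after their values were seen. Rbm3, a cold-inducible RNA-binding protein gene, went from 6 and 11 input reads to 2 and 1, a ratio of input to NONO IP of 8.51 (exact counting interval 2.46 to 45.3; log2 fold change −2.76, SE 0.73, edgeR adjusted p = 0.0057). Bcl6, a zinc finger repressor gene, went from 0 and 1 input reads to 8 and 8, a ratio of 10.7 (1.66 to 447; edgeR adjusted p = 0.011).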
